A study of Mus musculus with 9 samples.

Results

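The transcripts described here are the RefSeq non-coding RNAs that a whole-genome expression array detected in cultured mouse cortical neurons. They were the array probes whose target carries a RefSeq accession beginning NR_, the prefix for non-coding transcripts, and whose signal the scanner software marked as well above background throughout at least 1 of the 3 groups. Of 489 such probes on the array, 315 met this rule, out of 41174 probes that are not array controls. These 315 probes stand for 268 accessions, and 283 of them matched a symbol in the RefSeq gene table (GRCm38.p6), giving 236 symbols. Long non-coding RNAs are reported by 194 probes, transcribed pseudogenes by 72, non-coding transcripts filed under a protein-coding gene by 9 and small or structural RNAs by 8. The other 32 probes had no match and are called by their accession.

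The neurons came from the cortex of C57bl/6 mouse embryos at day 15 and had been kept in culture for 12 days in every group. Control cultures were left untreated, others received 25 µM bicuculline for 6 h, and others 50 mM KCl for 6 h. Bicuculline blocks the GABA-A receptor, the main inhibitory receptor of the cortex, so that a network fires in synchrony through its own synapses, whereas raised extracellular potassium depolarises every cell directly. Total RNA labelled with the dye Cy3 was hybridised to 1-colour Agilent arrays, 3 per group. The labels do not say whether the 3 arrays of a group came from separate cultures or animals, so the p-values rest on array-to-array spread that may be no more than technical.

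Long non-coding RNAs are transcribed and spliced much like messenger RNAs but are not translated into a known protein. Some act in the nucleus on chromatin or as scaffolds of nuclear bodies, some serve as the precursors from which microRNAs or small nucleolar RNAs are cut, and for many no function is known. Transcribed pseudogenes are copies of protein-coding genes that still make RNA. In neurons, electrical activity drives calcium entry and a wave of transcription led by factors such as Fos and Npas4, and both coding and non-coding transcripts can be part of it.

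Signals are given as a percentage of the 75th-percentile signal of the same array, so that 100 is the level that 1 probe in 4 exceeds, and differences are on the log2 scale with the standard error (SE) of the limma fit to all 9 arrays. Adjusted p-values are Benjamini-Hochberg values over all 27774 probes tested, and a probe is said to have risen or fallen where that value was under 0.05. Signals of different probes are not comparable as levels of RNA. The 75th-percentile intensity was 1586 to 3087 across arrays and 65.0% to 75.9% of the spots were well above background, with no saturated spot. The arrays lay on 3 slides: slide 1 held 2 control and 2 bicuculline arrays, slide 2 held 1 control, 1 bicuculline and 2 KCl arrays, and slide 3 held 1 KCl array. The activity-regulated messenger Fos rose by 2.76 (SE 0.04, limma adjusted p = 1e-08) with bicuculline and by 4.47 (SE 0.04, limma adjusted p = 1e-09) with KCl, and Npas4 rose by 0.86 and 4.32. Of 10 activity-regulated coding genes 8 rose and 2 fell with bicuculline and 9 rose and 1 fell with KCl: Egr1 fell with both (-0.59 and -0.63) and Arc fell with bicuculline and rose with KCl (-0.65 and 0.71). Of the markers of other cells, the summed signal of 3 vascular genes was 2286 to 2423 in control, 2265 to 2501 in bicuculline and 4139 to 4609 in KCl arrays, with all 3 called higher with KCl, while Cldn5 and Pecam1 were not well enough detected to be tested. The sum over 6 astrocyte genes was 12022 to 13246, 12108 to 12438 and 14012 to 14775 in the same order. Oligodendrocyte genes (5 of 6 tested) summed to 1093 to 1115, 968 to 1042 and 1178 to 1242, microglia genes (3 of 5 tested) to 86 to 90, 69 to 102 and 88 to 131, and neuronal genes (8 of 8) to 10475 to 10790, 10407 to 10517 and 10771 to 11280. The part of these other cells in the differences below was not tested, and in bulk RNA fewer cells of a type and less RNA per cell cannot be told apart.

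Among the non-coding RNAs, bicuculline changed fewer probes than KCl did. With bicuculline 54 of the 315 probes rose and 59 fell, which is 35.9% called, where 40.0% of all probes tested were called (17.4% higher and 22.5% lower). With KCl 134 rose and 75 fell, 66.3% called, where 69.3% of all probes were called (36.3% higher and 33.0% lower). In the direct comparison of KCl with bicuculline 112 probes were higher and 58 lower, 54.0% called, against 60.6% of all probes (34.6% higher and 26.0% lower). In each comparison the share called was somewhat below that of the whole array. The median difference over the 315 probes was -0.01 with bicuculline and 0.17 with KCl, beside -0.02 and 0.05 over all probes. The 3 arrays of one group did not overlap those of the other for 155 probes with bicuculline (54.1% of all probes did the same) and for 215 with KCl (73.0% of all probes). Changes of at least 2-fold were seen for 8 higher and 0 lower probes with bicuculline, beside 2.01% and 0.493% of all probes, and for 27 higher and 8 lower probes with KCl, beside 7.16% and 3.09% of all probes. Between KCl and bicuculline the arrays of 196 probes did not overlap (67.3% of all probes), and 16 probes were at least 2-fold higher and 4 at least 2-fold lower with KCl, beside 3.04% and 1.50% of all probes. With the slide as a block 51 probes rose and 58 fell with bicuculline, 108 rose and 62 fell with KCl, and 75 were higher and 42 lower for KCl against bicuculline. Within slide 2, which holds all 3 groups, the median difference over the 315 probes was -0.03 with bicuculline and 0.12 with KCl, and within slide 1 it was 0.01 with bicuculline.

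The balance of rises and falls with KCl depended on how the arrays were scaled. Scaling to the 75th percentile gave 134 rises and 75 falls (64.1% rises), quantile normalization gave 104 and 97 (51.7%), scaling to the median gave 93 and 109 (46.0%), and scaling to the spike-in RNAs gave 68 and 100 (40.5%). Among all probes tested, rises made up 52.4%, 42.1%, 35.5% and 29.5% of the calls in the same order, each time below the share of the non-coding RNA probes. The median of all probes moved with these scalings, from 0.05 to -0.05, -0.11 and -0.18. For KCl against bicuculline the share of rises went from 65.9% to 50.6%, 46.4% and 34.7%, and for bicuculline against control from 47.8% to 45.0%, 37.4% and 52.5%. Over all probes tested these shares went from 57.1% to 44.6%, 37.0% and 23.2%, and from 43.6% to 43.5%, 37.9% and 55.1%. All 75 falls with KCl were called under each of these 4 scalings, as were 64 of the 134 rises, and 60 of these falls and 59 of these rises were also called with the slide as a block. The other scalings moved KCl values down as a whole, so falls tended to keep their call and rises to lose it. These counts therefore do not show the falls to be firmer, and the same counts over all probes are not given. With bicuculline 27 of 54 rises and 27 of 59 falls were called under all 4, and the same numbers with the slide as a block too. Background correction with normexp before 75th-percentile scaling left 36 rises and 13 falls with KCl and 5 and 2 with bicuculline.

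**Figure D1:**
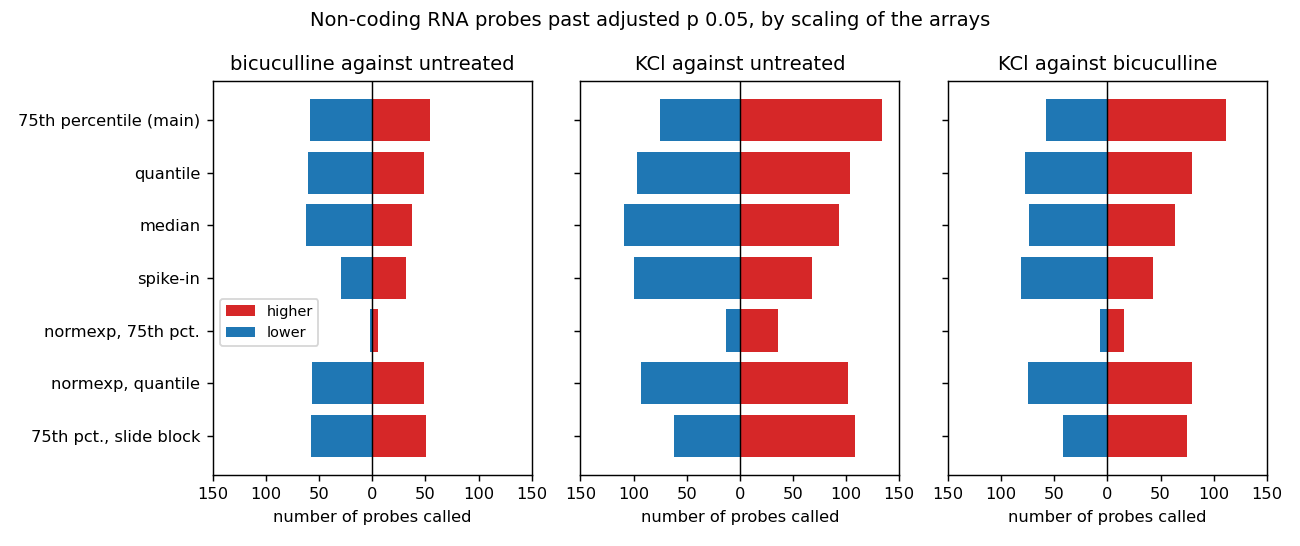
Number of non-coding RNA probes past a limma adjusted p of 0.05 (bars to the right: higher; bars to the left: lower) in each comparison, 1 row per way of scaling the arrays. With KCl against control the bars go from 134 rises and 75 falls under the 75th percentile to 68 and 100 under the spike-in scaling.

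Host transcripts of microRNAs gave some of the clearest differences. These long RNAs are cut in the nucleus to release hairpins, from which mature microRNAs of about the length of the sequences below are made. The array does not measure the mature microRNAs. Of 9 probes for 6 listed symbols, 3 rose and 2 fell with bicuculline, where 17.4% of all probes rose and 22.5% fell. With KCl 6 rose and 3 fell (median 0.56, beside 0.05 over all probes, of which 36.3% rose and 33.0% fell). The list does not hold every host: 10 of the RNAs hold a mature microRNA on their strand, some of them outside it. Of those outside, Ftx and Taf1d were not called against control, and A230057D06Rik, C130071C03Rik, Meg3, Rian and Snhg20 are described below. Mir124-2hg, Mir22hg, Mir100hg and Mir99ahg rose with KCl, and Dleu2 and Mirt1 fell. Mirt1 stands in this list through its name alone, which refers to myocardial infarction, and the RefSeq table places no microRNA within it. The mature sequences are shown for the hosts whose microRNA lies on the same strand within the gene, with the seed (bases 2 to 8, which pair with target messengers) in capitals, to show which of them share a seed. They are RefSeq sequences in GRCm38.p6. Mir22hg holds miR-22-3p at chr11:75463772-75463793, plus strand, and Mir100hg holds miR-100-5p at chr9:41531437-41531458 and miR-125b-5p at chr9:41581940-41581961, both on the plus strand. Dleu2 holds miR-16-5p at chr14:61631936-61631957 and miR-15a-5p at chr14:61632075-61632096 on the minus strand, and these 2 share the seed AGCAGCA. C130071C03Rik, described with the brain RNAs, holds miR-9-5p at chr13:83738821-83738843 on the plus strand.
mmu-miR-22-3p: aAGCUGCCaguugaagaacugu
mmu-miR-100-5p: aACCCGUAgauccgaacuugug
mmu-miR-125b-5p: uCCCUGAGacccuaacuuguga
mmu-miR-16-5p: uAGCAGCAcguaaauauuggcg
mmu-miR-15a-5p: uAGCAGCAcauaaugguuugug
mmu-miR-9-5p: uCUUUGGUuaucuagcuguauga

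Mir124-2hg is a host of miR-124, the most familiar neuron-enriched microRNA. Its probe A_51_P403704 read 229, 243 and 239.9 on the control arrays, 685, 611 and 687 with bicuculline and 911, 870.3 and 905 with KCl. The 3 groups did not overlap, and each treated array was above every control array. The difference was 1.48 (SE 0.05, limma adjusted p = 1e-06) with bicuculline and 1.92 (SE 0.05, limma adjusted p = 7.5e-08) with KCl. A second probe, A_51_P403705, gave 1.54 and 1.94, so both probes of this host moved alike.

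Mir22hg, whose microRNA has the seed AGCUGCC, read 163, 149.7 and 152 in control, 381, 324 and 351 with bicuculline and 514, 491 and 464 with KCl. Again the groups stood apart in the same order. It rose by 1.18 (SE 0.07, limma adjusted p = 9.5e-06) and by 1.66 (SE 0.07, limma adjusted p = 4.2e-07). KCl exceeded bicuculline by 0.48 for Mir22hg and by 0.44 for probe A_51_P403704 of Mir124-2hg, but neither difference between the treatments passed the test under spike-in scaling.

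Mir100hg, the host of miR-100 and miR-125b, behaved otherwise. It read 87.3, 84.9 and 89.8 in control, 91.5, 87.8 and 94.3 with bicuculline and 171, 159 and 158 with KCl. The bicuculline arrays overlapped the controls (0.06, SE 0.05, limma adjusted p = 0.34), whereas all KCl arrays lay above them, with a rise of 0.90 (SE 0.05, limma adjusted p = 1.3e-06) over control and 0.83 over bicuculline (limma adjusted p = 4.9e-06). Mir99ahg, a host of related microRNAs, rose with KCl at both of its probes, by 0.40 and 0.56, of which the first was not called under spike-in scaling, and neither probe was called with bicuculline.

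Dleu2, the host of miR-15a and miR-16, fell at probe A_51_P216015, from 78.4, 74.8 and 80.2 in control to 66.5, 63.4 and 64.1 with bicuculline and 59.0, 58.5 and 55.4 with KCl. The groups did not overlap, and the falls were -0.27 (SE 0.04, limma adjusted p = 0.0018) and -0.43 (SE 0.04, limma adjusted p = 4.5e-05). The first was lost under spike-in scaling. Its second probe read -0.38 with KCl (limma adjusted p = 0.029), a call that was lost when any 1 control or KCl array was left out. Mirt1 read 18.5, 16.1 and 18.6 in control, 12.8, 11.0 and 13.3 with bicuculline and 8.67, 9.57 and 8.38 with KCl, and fell by 0.52 (SE 0.09, limma adjusted p = 0.0028) and by 0.99 (SE 0.09, limma adjusted p = 3e-05). Its groups also kept apart without overlap.

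**Figure D2:**
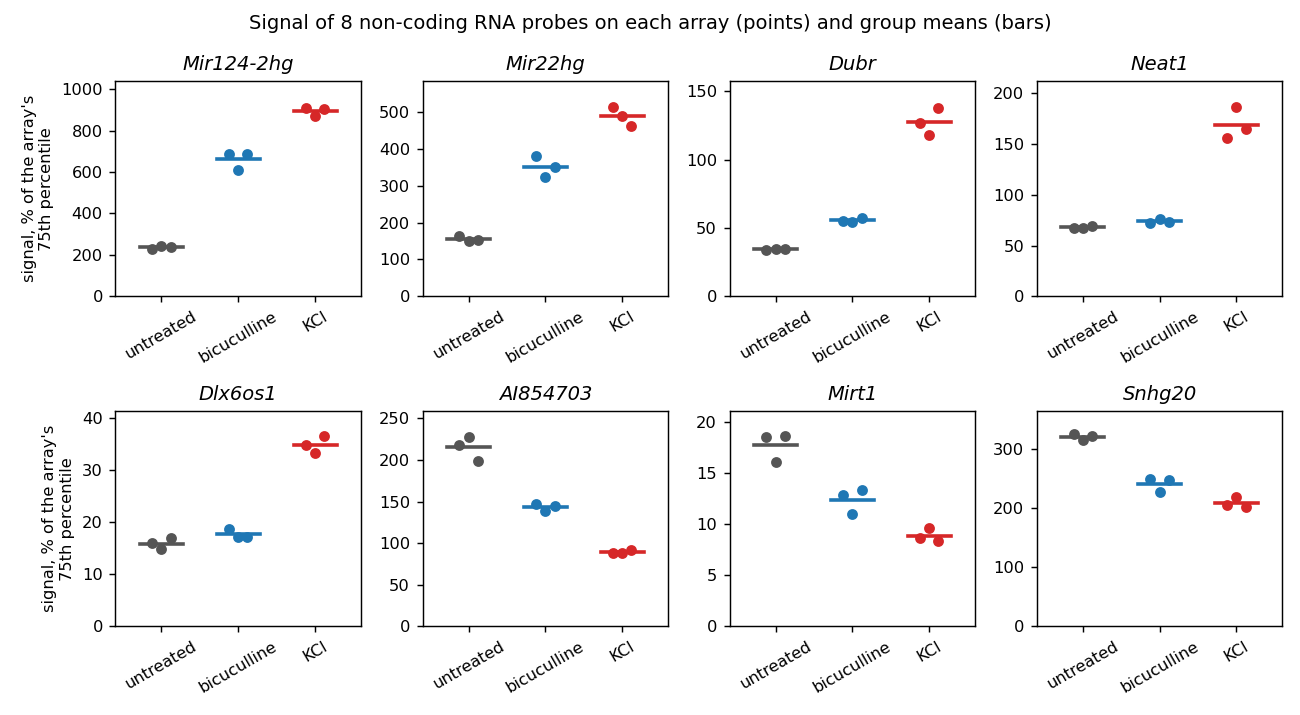
Signal of 8 non-coding RNA probes, as a percentage of the 75th-percentile signal of the array (vertical axes from 0, each probe on its own scale), on the 3 arrays of each group (points) with the group mean (bar). Mir124-2hg, Mir22hg and Dubr rise in steps from control to bicuculline to KCl, Neat1 and Dlx6os1 (probe A_52_P231012) stand apart with KCl, and AI854703, Mirt1 and Snhg20 step down.

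Host transcripts of small nucleolar RNAs, whose introns carry the guides for ribosomal RNA modification, went different ways. Of 7 probes for 6 symbols, 3 rose and 2 fell with bicuculline, where 17.4% of all probes rose and 22.5% fell. With KCl 3 rose and 1 fell (median 0.06), where 36.3% of all probes rose and 33.0% fell. The KCl counts became 2 and 1 under quantile normalization, 2 and 3 under median scaling and 1 and 3 under spike-in scaling. Over all probes the 10092 rises and 9152 falls became 7904 and 10855, 6347 and 11538, and 4804 and 11465 in the same order. Snhg8, at probe A_51_P115098, read 17.3, 16.6 and 16.6 in control, 32.1, 28.8 and 30.2 with bicuculline and 23.1, 25.8 and 23.9 with KCl. Here the bicuculline arrays were the highest. The rise was 0.85 (SE 0.06, limma adjusted p = 1.8e-05) with bicuculline and 0.53 (SE 0.06, limma adjusted p = 7.2e-05) with KCl, and KCl was lower than bicuculline by -0.32 (limma adjusted p = 0.0016). The KCl rise was not called under spike-in scaling, and the difference between treatments turned to 0.08 under normexp with 75th-percentile scaling. Snhg17 read 119, 107 and 111 in control, 149, 139 and 147 with bicuculline and 156, 171 and 173 with KCl, rising by 0.37 (SE 0.06, limma adjusted p = 0.0016) and 0.57 (SE 0.06, limma adjusted p = 5.5e-05). The bicuculline rise of Snhg17 was not called under spike-in scaling. Snhg20 fell from 325, 315 and 323 in control to 249, 228 and 248 and to 205, 219 and 203, by -0.41 (SE 0.05, limma adjusted p = 0.00032) and -0.62 (SE 0.05, limma adjusted p = 1e-05). Neither of these 2 had overlapping groups against control. Snhg7 and Snhg16 were not called with either treatment, and Snhg3 read -0.12 with bicuculline (limma adjusted p = 0.048), a call lost under quantile, median and spike-in scaling.

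Neat1 and Malat1, RNAs of nuclear bodies made from neighbouring genes, were higher with KCl than in control. Neat1 is the scaffold of paraspeckles, nuclear bodies that hold RNA-binding proteins, and Malat1 is an abundant RNA of nuclear speckles. Neat1 read 67.5, 67.8 and 69.0 in control, 72.5, 76.0 and 73.6 with bicuculline and 156, 187 and 165 with KCl. All bicuculline arrays were slightly above control, but the difference of 0.12 (SE 0.06, limma adjusted p = 0.18) did not pass the test, while KCl raised Neat1 by 1.31 (SE 0.06, limma adjusted p = 9.2e-07) over control and by 1.19 (limma adjusted p = 4.1e-06) over bicuculline. Malat1 had 4 probes, and all rose with KCl, by 0.42, 0.62, 0.46 and 0.83, of which 0.42 and 0.46 were not called under spike-in scaling and 0.46 not with the slide as a block. Its probe A_52_P416123 read 193, 190.2 and 194 in control, 198, 199 and 197 with bicuculline and 348, 326 and 355 with KCl. That probe was not called with bicuculline (0.04, SE 0.04, limma adjusted p = 0.45), whereas the other 3 rose, by 0.28, 0.32 and 0.33, so the probes of this RNA disagree on bicuculline. The calls of 0.28 and 0.33 were lost under median scaling.

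Over the whole list of nuclear and dosage-compensation RNAs, 4 of 19 probes rose and 2 fell with bicuculline, where 17.4% of all probes rose and 22.5% fell. With KCl 7 rose and 1 fell, where 36.3% of all probes rose and 33.0% fell. The KCl counts became 5 and 2 under quantile normalization, 5 and 5 under median scaling and 3 and 3 under spike-in scaling. Over all probes the 10092 rises and 9152 falls became 7904 and 10855, 6347 and 11538, and 4804 and 11465 in the same order. Rmrp, the RNA of a ribonuclease that processes ribosomal RNA, read 44.4, 47.8 and 43.2 in control, 35.8, 26.7 and 30.1 with bicuculline and 41.0, 38.3 and 42.0 with KCl. It fell with bicuculline, by -0.56 (SE 0.10, limma adjusted p = 0.0034), without overlap, and its -0.16 with KCl did not pass. Xist, the RNA that coats the inactive X chromosome, was called at none of its 4 probes in the comparisons with control, where KCl gave -0.02 to 0.24 and 1 probe turned to -0.16 under median scaling. Tsix, its antisense partner, read 0.17 (limma adjusted p = 0.022) and Norad, a cytoplasmic RNA that binds Pumilio proteins, 0.10 (limma adjusted p = 0.043) with KCl, and both turned negative under quantile and spike-in scaling. The Tsix call was also lost with the slide as a block. Tug1 fell slightly at 1 of its 3 probes, by -0.16 and -0.21, and the bicuculline call was lost under spike-in scaling. Crnde, an RNA raised in some tumours, read 8.20, 7.94 and 8.14 in control, 8.63, 8.95 and 9.06 with bicuculline and 7.76, 7.20 and 7.89 with KCl. Its 0.13 with bicuculline (limma adjusted p = 0.042) was lost under quantile, median and spike-in scaling, and it was lower with KCl than with bicuculline by -0.22 (SE 0.04, limma adjusted p = 0.0029), a value that turned to 0.60 under normexp with 75th-percentile scaling. Between KCl and bicuculline 7 of the 19 probes were higher and 1 lower, which became 3 and 1, 2 and 2, and 2 and 2 under quantile, median and spike-in scaling. Over all probes 9622 higher and 7222 lower became 7117 and 8851, 5210 and 8888, and 2872 and 9504. Firre, Ftx and Terc were not called against control with either treatment.

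Imprinted domains, where a gene is read from only one parental copy, supplied 11 probes for 4 symbols. With bicuculline 4 rose and 0 fell, beside 17.4% of all probes higher and 22.5% lower. With KCl 8 rose and 0 fell, beside 36.3% of all probes higher and 33.0% lower. However, the KCl count was 4 rises and 1 fall under quantile normalization and 3 and 1 under median scaling. It was 1 and 0 under spike-in scaling and 5 and 0 with the slide as a block. Over all probes the 10092 rises and 9152 falls with KCl became 7904 and 10855 under quantile normalization and 6347 and 11538 under median scaling. They became 4804 and 11465 under spike-in scaling and 8319 and 8066 with the slide as a block. Meg3, transcribed from the maternal copy of the Dlk1-Dio3 domain, rose with KCl at all 5 of its probes, by 0.31 to 0.55, and with bicuculline at 3, by 0.26, 0.31 and 0.32. None of the 5 KCl calls, and none of the 3 bicuculline calls, held under spike-in scaling, and the bicuculline calls of 0.31 and 0.32 and 1 KCl call were lost with the slide as a block. At its probe A_52_P391505 Meg3 read 1809, 1490.0 and 1629 in control, 2153, 1969.6 and 2016 with bicuculline and 2136, 2629 and 2439.8 with KCl (0.55, SE 0.09, limma adjusted p = 0.0011). Both treated groups lay above control and overlapped each other. Rian, the next RNA of that domain and a host of small nucleolar RNAs, read 108, 147 and 128 in control, 158, 180.2 and 165 with bicuculline and 162, 147 and 148 with KCl. It rose by 0.40 (SE 0.11, limma adjusted p = 0.02) with bicuculline, a call lost without bicuculline array 2, and its 0.26 with KCl did not pass (limma adjusted p = 0.061). Dlk1, the coding gene next to them, was not called with either treatment.

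Airn, the antisense RNA known for silencing the paternal copy of Igf2r in many tissues, was near the detection limit. It read 0.460, 0.379 and 0.279 in control, 0.490, 0.575 and 0.422 with bicuculline and 2.88, 3.09 and 2.73 with KCl. No control or bicuculline array had it well above background and all 3 KCl arrays did, so its rise can only be given as a lower limit: the mean of the KCl arrays over, on each array of the other group, the lowest signal of any probe well above background or the probe's own signal, whichever was higher. By that measure Airn was at least 2.08-fold higher with KCl than in control and at least 2.36-fold higher than with bicuculline. No p-value is given beside such limits, because the fit behind the calls used signals below background. Airn met the background rule in KCl arrays alone, so its difference was partly set by that rule. Igf2r itself, the overlapping coding gene, was lower with KCl by -0.11 (SE 0.04, limma adjusted p = 0.021). Kcnq1ot1, the antisense RNA of the Kcnq1 domain, read 0.27 and 0.23 with KCl at the 2 of its 4 probes that passed (limma adjusted p = 0.0098 and 0.01), neither of them under median or spike-in scaling or with the slide as a block, and Cdkn1c, a growth inhibitor of the same domain, rose by 0.56 (SE 0.07, limma adjusted p = 0.00014).

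One of 2 RefSeq starts of Meg3, at chr12:109540746-109541045, plus strand, is shown with that of 9530026P05Rik at chr6:92940332-92940631, plus strand, and that of Mirt1 at chr19:53464747-53465046, minus strand. They were chosen after their values were seen, because each holds a motif bound by factors known from activity-dependent transcription: 250 bases before the start and 50 after it were searched on both strands for TGACGTCA (the CREB site), TGANTCA (the AP-1 site of Fos and Jun), GCGNGGGCG (the EGR site) and CACGTG (an E-box), and matches are in capitals. The other Meg3 start held no match. Mirt1 fell and 9530026P05Rik rose with KCl, and both hold an AP-1 match.
Meg3: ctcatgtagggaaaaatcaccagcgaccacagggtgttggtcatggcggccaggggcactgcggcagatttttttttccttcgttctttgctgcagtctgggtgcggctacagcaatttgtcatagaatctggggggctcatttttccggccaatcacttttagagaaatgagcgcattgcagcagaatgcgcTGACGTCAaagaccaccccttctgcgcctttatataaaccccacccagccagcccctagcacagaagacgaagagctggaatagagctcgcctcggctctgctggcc
9530026P05Rik: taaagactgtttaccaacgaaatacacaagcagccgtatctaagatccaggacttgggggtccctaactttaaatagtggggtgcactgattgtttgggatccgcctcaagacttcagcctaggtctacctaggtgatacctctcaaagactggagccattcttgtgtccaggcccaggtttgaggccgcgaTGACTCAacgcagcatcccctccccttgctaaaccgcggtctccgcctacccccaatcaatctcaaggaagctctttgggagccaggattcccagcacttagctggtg
Mirt1: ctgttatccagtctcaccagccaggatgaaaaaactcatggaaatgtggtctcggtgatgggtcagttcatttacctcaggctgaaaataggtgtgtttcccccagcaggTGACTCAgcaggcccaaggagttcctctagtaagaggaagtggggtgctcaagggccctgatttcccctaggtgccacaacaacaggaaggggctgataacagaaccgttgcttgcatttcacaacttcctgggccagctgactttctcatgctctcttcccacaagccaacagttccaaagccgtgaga

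Of 165 promoters found for 142 of the symbols, 4 (2.42%) held the CREB site, 10 (6.06%) the AP-1 site, 11 (6.67%) the EGR site and 12 (7.27%) the E-box. Among all 32544 promoters in the RefSeq table the shares were 1.80%, 7.79%, 5.60% and 7.17%. A match describes these letters in this window and is not a measured site.

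The listed RNAs beside genes for developmental transcription factors rose with KCl at all 6 of their probes, for 4 symbols (median 0.56). This count became 5 under quantile normalization, 5 under median scaling and 3 under spike-in scaling, with 0 lower. Over all probes 36.3% rose with KCl before these changes of scaling. Those 10092 rises became 7904, 6347 and 4804 in the same order, while the 9152 falls became 10855, 11538 and 11465. With bicuculline 0 rose and 1 fell, where 17.4% of all probes rose and 22.5% fell. Dlx6os1, also known as Evf2, is an RNA antisense to Dlx6 that marks forebrain interneuron precursors. Its probe A_52_P231012 read between 14.8 and 16.9 on the 3 control arrays, 18.7, 17.1 and 17.2 with bicuculline and 34.9, 33.4 and 36.5 with KCl. The KCl arrays lay far above both other groups, with a rise of 1.14 (SE 0.06, limma adjusted p = 1.7e-06) over control and 0.98 (limma adjusted p = 8.2e-06) over bicuculline, which itself gave 0.15 (limma adjusted p = 0.088). The second probe rose by 0.96 (SE 0.08, limma adjusted p = 2.3e-05). The coding genes beside it rose with KCl too: Dlx6 by 0.85 (SE 0.18, limma adjusted p = 0.0031) and Dlx5 by 0.49 (SE 0.06, limma adjusted p = 0.00014). Dlx6os2, which also overlaps Dlx6 but is not in the list, was not called in any comparison.

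Zfhx2os, antisense to the homeobox gene Zfhx2, read 26.2, 29.2 and 26.7 in control, 28.1, 26.4 and 33.0 with bicuculline and 47.9, 48.6 and 39.2 with KCl. Only the KCl arrays were clear of control (0.72, SE 0.11, limma adjusted p = 0.00056). The 2 probes of Zfhx2 read 1.09 and 1.26 with KCl, and -0.04 and 0.58 with bicuculline. Sox2ot, whose transcript spans the stem-cell factor Sox2, rose with KCl at both probes, by 0.35 and 0.40, neither called under spike-in scaling. Sox2 differed in the other direction, by -0.15 (SE 0.04, limma adjusted p = 0.0082). The direction of Pantr1, beside Pou3f3, was not settled, since its 0.13 with KCl (limma adjusted p = 0.023) turned to -0.05 under quantile normalization, -0.03 under median and -0.09 under spike-in scaling.

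The remaining brain RNAs gave 3 symbols besides Meg3 and Rian. Oip5os1, known as Cyrano, an RNA that directs the decay of miR-7, read 76.2, 82.5 and 79.3 in control, 83.9, 78.7 and 81.1 with bicuculline and 126, 112 and 119 with KCl. It rose with KCl by 0.59 (SE 0.05, limma adjusted p = 3.2e-05), with 0.48 at its second probe, and neither probe was called with bicuculline. C130071C03Rik, the host of miR-9, read 142, 119 and 129 in control, 144, 166 and 164 with bicuculline and 182, 161 and 176 with KCl. It rose by 0.41 (SE 0.08, limma adjusted p = 0.0027) with KCl, though not under spike-in scaling, and its 0.28 with bicuculline (limma adjusted p = 0.03) was lost under median and spike-in scaling and with the slide as a block.

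A230057D06Rik was the faller of this list, and its span on chromosome 7 holds a cluster of miR-344 hairpins on the same strand. It read 53.8, 51.7 and 55.5 in control, 50.6, 46.2 and 48.4 with bicuculline and 28.2, 31.1 and 30.1 with KCl. The KCl arrays were lower than all others, by -0.85 (SE 0.05, limma adjusted p = 3.3e-06) against control, while bicuculline gave -0.15 (limma adjusted p = 0.054). The mature microRNAs of the cluster fall into groups by seed, shown by miR-344d-3p at chr7:61726256-61726277 and miR-344e-3p at chr7:61735539-61735560, which share AUAUAAC, and by miR-344-3p at chr7:61877782-61877804 and miR-344c-3p at chr7:61837323-61837345, which share GAUCUAG, all on the minus strand.
mmu-miR-344d-3p: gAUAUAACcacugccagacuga
mmu-miR-344e-3p: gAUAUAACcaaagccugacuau
mmu-miR-344-3p: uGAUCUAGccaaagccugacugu
mmu-miR-344c-3p: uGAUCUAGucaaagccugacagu

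**Figure D3:**
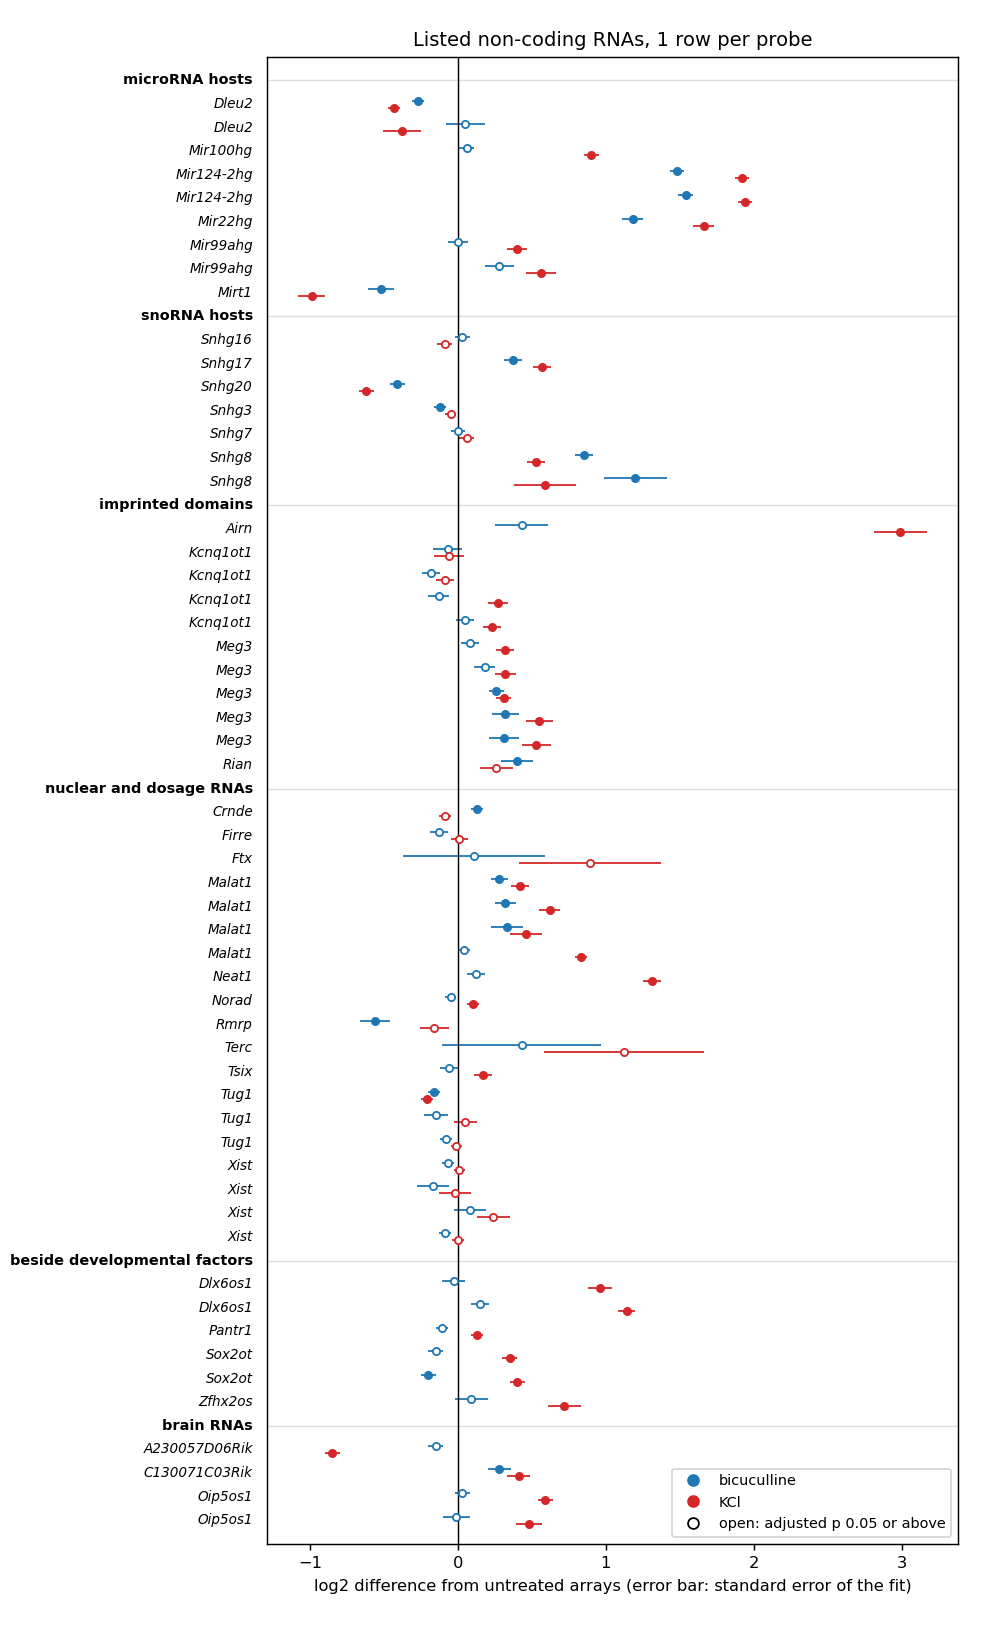
log2 difference from the control arrays for each probe of the 6 lists (blue: bicuculline; red: KCl; bars: SE of the fit; open circles: limma adjusted p of 0.05 or above), with Meg3 and Rian drawn once. The Airn value is fitted to signals below background and is given in the text as a lower limit. All 6 listed probes beside developmental factors lie right of 0 with KCl at 75th-percentile scaling. Pantr1 turns negative under the other scalings, and the listed microRNA hosts spread to both sides.

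Other large rises were seen in little-known RNAs, the first 2 of them from signals that no control array had well above background. A930011G23Rik read 0.406, 0.607 and 0.224 in control, 1.57, 1.12 and 1.66 with bicuculline and 5.06, 5.02 and 4.78 with KCl. It was well above background on 0 control, 1 bicuculline and 3 KCl arrays. Against control it was at least 3.56-fold higher with KCl and at least 1.03-fold higher with bicuculline. Speer6-ps1, a pseudogene of a testis gene family, was detected on the same numbers of arrays, reading 0.392, 0.337 and 0.242, then 1.51, 1.52 and 2.32, then 3.95, 3.21 and 2.85. It was at least 2.38-fold higher with KCl and at least 1.25-fold higher with bicuculline. It belongs to a multigene family, so related copies may share the probe. A930011G23Rik and Speer6-ps1 met the background rule in KCl arrays alone, so their differences were partly set by that rule.

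The transcript NR_003640, which had no matched symbol, was well above background everywhere and read 3.33, 2.97 and 3.28 in control, 5.93, 6.12 and 6.75 with bicuculline and 15.7, 20.3 and 18.2 with KCl. Its groups were far apart, with rises of 0.97 (SE 0.10, limma adjusted p = 0.00017) and 2.49 (SE 0.10, limma adjusted p = 3.4e-07). 9530026P05Rik, whose promoter with an AP-1 match is shown above, read 1.41, 1.58 and 1.33, then 2.15, 2.02 and 2.67, then 7.37, 7.58 and 8.02. Only 1 of its control arrays was well above background, and it rose by 0.66 (SE 0.11, limma adjusted p = 0.0021) and 2.41 (SE 0.11, limma adjusted p = 6.3e-07).

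Dubr, an RNA named for its place upstream of Dppa2, read 33.8, 34.6 and 34.7 in control, 55.0, 54.7 and 57.2 with bicuculline and 127, 118 and 138 with KCl at probe A_52_P40954. It rose there by 0.70 (SE 0.06, limma adjusted p = 5.1e-05) and 1.89 (SE 0.06, limma adjusted p = 8.8e-08). Its second probe, A_51_P507234, rose with KCl alone, by 0.78 (SE 0.05, limma adjusted p = 3e-06), and gave 0.01 with bicuculline (limma adjusted p = 0.89), so the probes of Dubr disagree on bicuculline. 1700086L19Rik was raised by KCl and not by bicuculline: it read 683, 728 and 677 in control, 617, 679 and 632 with bicuculline and 1581, 1580.3 and 1634 with KCl. Its rise was 1.20 (SE 0.05, limma adjusted p = 3.6e-07) over control and 1.32 (limma adjusted p = 9.3e-07) over bicuculline.

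Some RNAs also rose clearly with bicuculline. The transcript listed as non-coding under Trmt61b, a gene for a mitochondrial tRNA methyltransferase, read 19.7, 21.7 and 21.5 in control, 59.3, 71.4 and 63.9 with bicuculline and 49.3, 51.4 and 59.6 with KCl. It rose by 1.62 (SE 0.09, limma adjusted p = 8.4e-06) and 1.34 (SE 0.09, limma adjusted p = 5.7e-06), and the difference of -0.28 between the treatments (limma adjusted p = 0.029) was lost without any 1 of 4 arrays. C030034I22Rik read 10.2, 9.45 and 9.56, then 18.5, 21.9 and 20.7, then 24.4, 23.6 and 22.0, with rises of 1.06 (SE 0.07, limma adjusted p = 1.8e-05) and 1.26 (SE 0.07, limma adjusted p = 1.9e-06). Its 0.20 for KCl over bicuculline (limma adjusted p = 0.04) was lost under every other scaling tried and with the slide as a block. Thap6, here a non-coding transcript under a zinc-finger gene, read 2.77, 2.37 and 2.71 in control, 4.87, 5.08 and 5.15 with bicuculline and 1.86, 3.33 and 2.84 with KCl. It rose with bicuculline, by 0.95 (SE 0.19, limma adjusted p = 0.0054), while the KCl arrays overlapped control.

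Speer4cos, another RNA of the Speer family, read 1.07, 0.326 and 0.239 in control, 0.368, 0.867 and 1.03 with bicuculline and 2.94, 3.08 and 2.51 with KCl. It was well above background on 0 control, 1 bicuculline and 3 KCl arrays, so it too met the background rule in KCl arrays alone. With KCl it was at least 2.03-fold higher than in control. Gm12830 rose with KCl at both probes, by 2.17 (SE 0.58, limma adjusted p = 0.01) where 1 of 3 control arrays was well above background, and by 0.68 (SE 0.18, limma adjusted p = 0.0093) where all were. 2410017I17Rik read 3.81, 4.07 and 9.82 in control, 5.42, 5.62 and 6.97 with bicuculline and 17.4, 16.3 and 9.88 with KCl. Its control and KCl arrays nearly met, and its KCl difference was 1.40 (SE 0.38, limma adjusted p = 0.011).

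Some of the largest falls with KCl came with a smaller fall under bicuculline. AI854703 read 218, 228 and 199 in control, 147, 139 and 145 with bicuculline and 88.1, 88.8 and 92.4 with KCl. It fell by -0.58 (SE 0.05, limma adjusted p = 0.00011) and -1.26 (SE 0.05, limma adjusted p = 5.2e-07), with no overlap among the 3 groups. A930017M01Rik read 41.3, 41.4 and 41.8, then 29.1, 27.3 and 29.1, then 14.6, 14.8 and 21.2, falling by -0.54 (SE 0.13, limma adjusted p = 0.013) and -1.32 (SE 0.13, limma adjusted p = 4.9e-05). Zfp85os, an antisense RNA beside a zinc-finger gene, read 2.92, 3.10 and 3.40 in control, 1.86, 1.82 and 2.17 with bicuculline and 1.09, 0.751 and 1.25 with KCl. No KCl array had Zfp85os well above background, and it was at least 1.83-fold lower there than in control. However, its difference turned to 0.66 under normexp with 75th-percentile scaling.

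Cep83os, antisense to a centrosome gene, read 134, 139.7 and 134 in control, 116, 119 and 117 with bicuculline and 76.2, 85.0 and 84.0 with KCl at probe A_51_P152479. It fell there by -0.74 (SE 0.05, limma adjusted p = 4.2e-06) with KCl, while the -1.11 of its second probe was lost with the slide as a block. NR_028086 fell with both treatments, by -0.59 (SE 0.07, limma adjusted p = 0.00038) with bicuculline and by -0.39 (SE 0.07, limma adjusted p = 0.0013) with KCl, and the difference of 0.19 between the treatments (limma adjusted p = 0.042) was lost under quantile, median and spike-in scaling. NR_024078 fell with KCl, by -0.77 (SE 0.09, limma adjusted p = 0.0001), and not with bicuculline. Further falls with KCl were -1.36 for A930003A15Rik, -0.97 for 9930014A18Rik, -0.85 for the Cdk3 pseudogene, lost with the slide as a block, and -0.62 for probe A_52_P145878 of 5530601H04Rik, whose other probe was at least 1.84-fold lower. NR_024078 and these 4 turned positive under normexp with 75th-percentile scaling. C4bp-ps1 and 0610040B10Rik were not called against control and were lower with KCl than with bicuculline, by -1.42 and -0.82, of which the first was lost with the slide as a block.

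B830017H08Rik had probes that went opposite ways with KCl. Probe A_52_P174864 read 51.5, 55.0 and 51.4 in control and 24.6, 23.4 and 24.3 with KCl (-1.13, SE 0.05, limma adjusted p = 4.9e-07), and probe A_52_P131249 read 4.54, 5.56 and 6.80 in control and 10.3, 11.9 and 7.35 with KCl (0.80, SE 0.23, limma adjusted p = 0.016). The second call was lost without control array 1 or without KCl array 2. It was the only one of 35 symbols with several probes whose probes were called both ways with KCl, where 20 had all probes called one way, 12 had part of them called and 2 had none. Since 69.3% of all probes were called with KCl and other genes with several probes were not counted, these numbers are descriptive only. The fall of 6330549D23Rik was the largest fitted one, at -1.72 with KCl (limma adjusted p = 0.039), and its size rests on 1 array. It read 3.42, 4.05 and 19.7 in control and 2.98, 1.87 and 1.37 with KCl. Without control array 3 the difference was -0.92 and was still called (limma adjusted p = 0.029). The call was lost without any 1 bicuculline array, without KCl array 2 or without KCl array 3.

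A few RNAs were called in opposite directions by the treatments. Both comparisons use the same control arrays, so their calls are not independent. Of the 315 probes 6 were lower with bicuculline and higher with KCl, where 1.90% of all probes were, and 2 were the reverse, where 1.36% of all probes were. Of these, only 6530411M01Rik and Prmt6 kept both calls under quantile, median and spike-in scaling. 6530411M01Rik read 10.3, 9.70 and 10.3 in control, 7.84, 6.88 and 7.21 with bicuculline and 14.7, 16.7 and 15.7 with KCl. Control arrays lay between the treatments without overlap, at -0.47 (SE 0.06, limma adjusted p = 0.00086) and 0.64 (SE 0.06, limma adjusted p = 5.3e-05). 9130024F11Rik read 178, 182 and 176 in control, 147, 134 and 139 with bicuculline and 232, 233 and 239 with KCl. It differed by -0.35 (SE 0.04, limma adjusted p = 0.00036) and 0.39 (SE 0.04, limma adjusted p = 6.2e-05), the latter not called under spike-in scaling.

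2900079G21Rik read 34.8, 36.4 and 33.6, then 29.5, 27.7 and 28.9, then 40.5, 39.0 and 40.2, and its KCl value of 0.19 (limma adjusted p = 0.0044) turned to -0.03 under spike-in scaling. It overlaps Arpp21, a neuronal phosphoprotein gene whose 3 probes disagreed, from -0.18 to 2.46 with bicuculline and from -1.17 to 2.86 with KCl. The non-coding transcript under Prmt6, an arginine methyltransferase gene, went the other way, reading 27.3, 27.6 and 29.8 in control, 46.8, 50.8 and 49.9 with bicuculline and 20.8, 23.0 and 25.7 with KCl. Bicuculline arrays were the highest and KCl arrays the lowest, at 0.80 (SE 0.08, limma adjusted p = 0.00014) and -0.29 (SE 0.08, limma adjusted p = 0.012), and the KCl fall turned to 0.16 under normexp with 75th-percentile scaling. There were 88 pairs of a non-coding RNA and a tested coding gene that overlaps it. With KCl both were higher in 18 pairs, both lower in 9, and the 2 were called in opposite directions in 15. The non-coding RNA alone was called in 14, the coding gene alone in 23 and neither in 9. Over all probes 36.3% rose and 33.0% fell with KCl, and whether these counts differ from those of unrelated genes was not tested. How the labelling and probes keep the strands of overlapping pairs apart was not stated in the labels or file headers.

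**Figure D4:**
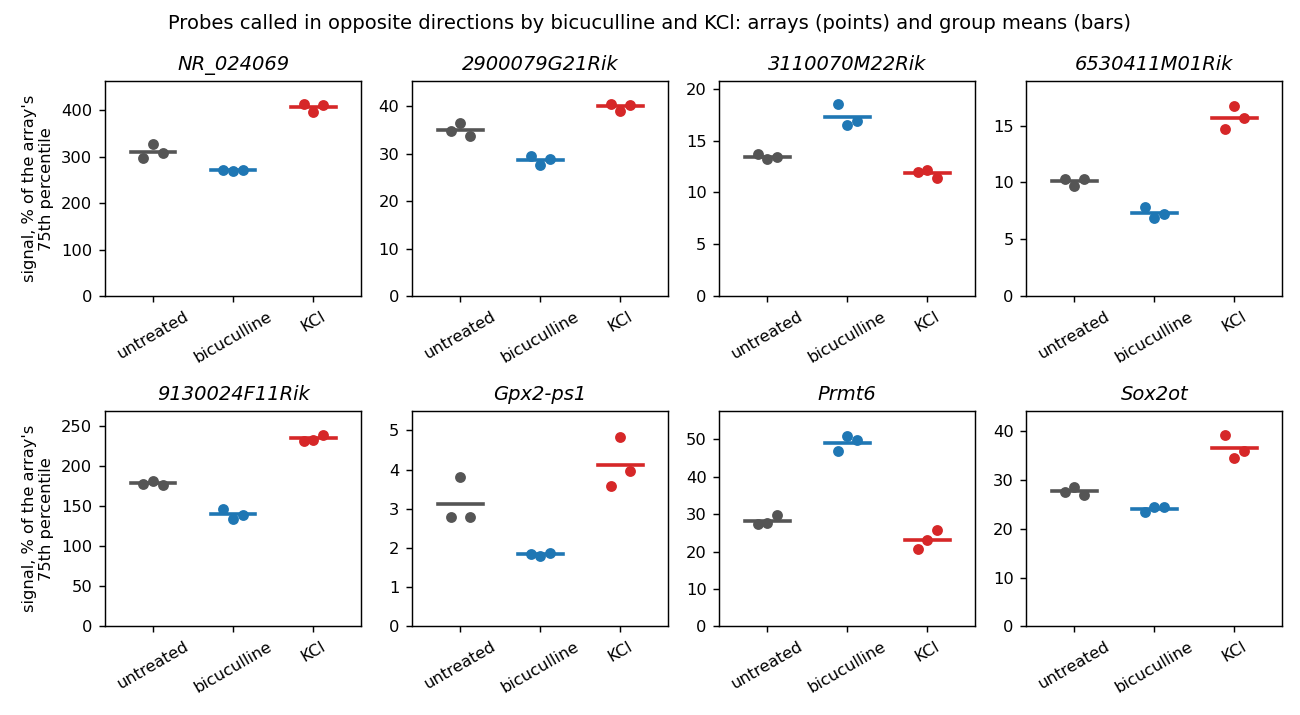
Signal, as a percentage of the 75th-percentile signal of the array (vertical axes from 0, each probe on its own scale), of the 8 probes called in opposite directions by bicuculline and KCl, on each array (points) with the group mean (bar). In 6 of them the bicuculline arrays are the lowest and in 3110070M22Rik and Prmt6 the highest; the KCl arrays of Gpx2-ps1 overlap its control arrays.

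Pseudogenes could be set beside the coding gene they copy for 8 of 20 probes with such symbols; these were singled out after their values were seen. With KCl 4 pairs were called the same way, 0 in opposite ways, the pseudogene alone in 2, the coding gene alone in 1 and neither in 1. The counts with bicuculline were the same. Over all probes 69.3% were called with KCl and 40.0% with bicuculline. Gpx2-ps1, a copy of the glutathione peroxidase gene Gpx2, read 2.79, 3.81 and 2.80 in control, 1.84, 1.81 and 1.88 with bicuculline and 3.58, 4.84 and 3.97 with KCl. It fell with bicuculline, by -0.75 (SE 0.14, limma adjusted p = 0.0044), and its 0.40 with KCl (limma adjusted p = 0.037) was lost under quantile, median and spike-in scaling and with the slide as a block. Gpx2 gave -0.66 (SE 0.06, limma adjusted p = 0.00012) and 0.26 (SE 0.06, limma adjusted p = 0.0075). Pdxk-ps, a copy of the pyridoxal kinase gene, read 7.59, 9.25 and 8.68 in control, 11.6, 10.6 and 11.7 with bicuculline and 21.7, 21.7 and 18.5 with KCl. It rose by 0.41 (SE 0.09, limma adjusted p = 0.009) and 1.28 (SE 0.09, limma adjusted p = 7.9e-06), whereas Pdxk itself was not called, at 0.00 and -0.03. The probes may bind both the copy and the coding gene, and these cannot be told apart here.

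By class, KCl raised 87 and lowered 46 of the 194 long non-coding RNA probes and raised 29 and lowered 17 of the 72 pseudogene probes. Of the 32 unmatched probes 13 rose and 9 fell, of the 9 under coding genes 3 rose and 3 fell, and of the 8 small or structural RNAs 2 rose and 0 fell. These splits are at 75th-percentile scaling, where 36.3% of all probes rose and 33.0% fell. With bicuculline the counts were 33 and 39, 11 and 14, 7 and 5, 1 and 0, and 2 and 1 in the same order, where 17.4% of all probes rose and 22.5% fell. Of the 315 probes, 272 were well above background on all 9 arrays and 43 were not. Among these 43, 11 met the background rule in KCl arrays alone, 3 in bicuculline arrays alone and 3 in control arrays alone, so that a difference in these was partly set by the rule.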

How the data were processed

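Scanner files of 9 single-colour Agilent arrays were used, written by Agilent Feature Extraction 10.7.3.1 per the file headers and 10.5.1.1 per the submitters' processing notes, with probes mapped to mm9 per the file headers. The deposited values are processed spot intensities, background-corrected and spatially detrended by that program, with a small positive value in place of low signals, per the file headers. The series' deposited value table held the same intensities for all 45018 features of each array. From these intensities log2 values of the deposited signal were computed here minus the 75th percentile of each array. Control spots and 568 spot values flagged as outliers by the scanner software (9 of them in the probes described) were left out, spots of a probe were averaged, and probes well above background on all arrays of at least 1 group were tested, 27774 in all. A group needed at least 2 values. The 3 comparisons came from 1 limma 3.58.1 fit (R 4.3.3) over the 3 groups (residual degrees of freedom 6, prior 1.71), with a Benjamini-Hochberg threshold of 0.05. The script was tested on simulated data. An exact permutation test of 3 arrays against 3 cannot go below p = 0.1.

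The RNAs named were drawn from the 8 largest rises and falls of each comparison whose arrays did not overlap, members of 6 lists of non-coding RNAs, RNAs with several probes and those called in opposite directions by the treatments; beside them stand the coding neighbours of the named RNAs and the pseudogenes whose coding gene was tested. The probes and lists were chosen with earlier results of these data known. Symbols, spans and sequences come from RefSeq tables of GRCm38.p6, which matched 283 of 315 probes. Alternatives were quantile, median and spike-in scaling (7 spike-in probes), normexp background correction (offset 50), other filters, outlier spots kept, another prior, slide or replicate number as a block, and leaving out each array. Probe sequences were not used here. The number of arrays limits the precision.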

Additional observations from a re-analysis of the deposited data

Results flagged for a closer look

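For 8 probes the difference of KCl from control and that of bicuculline from control had opposite signs and both passed the test. The treatments' direct difference, given here, follows from that choice and is no further support. KCl was higher than bicuculline by 1.15 for Gpx2-ps1, by 1.11 for 6530411M01Rik, by 0.74 for 9130024F11Rik, by 0.60 for Sox2ot (probe A_52_P48853), by 0.59 for NR_024069 and by 0.48 for 2900079G21Rik, on the log2 scale. KCl was lower than bicuculline by -1.09 for Prmt6 and by -0.54 for 3110070M22Rik. NR_024069 read 298, 327 and 307 in control, 271, 269 and 271 with bicuculline and 413, 395 and 411 with KCl. 3110070M22Rik read 13.7, 13.2 and 13.4, then 18.5, 16.5 and 16.9, then 12.0, 12.2 and 11.4, and its KCl call against control was lost with the slide as a block. Of the 8 probes only 6530411M01Rik and Prmt6 kept both calls under quantile, median and spike-in scaling. NR_024069, 2900079G21Rik and the Sox2ot probe kept neither call under all of these. The bicuculline fall of Sox2ot was also lost without control array 2 or without bicuculline array 1. The coding reference gene Arc differed in the same way as the first 6, by -0.65 with bicuculline (limma adjusted p = 5.9e-05) and 0.71 with KCl (limma adjusted p = 1.1e-05).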

How the results depend on the processing

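Scaling and background correction moved the counts most. Spike-in scaling gave 32 higher and 29 lower probes with bicuculline, 68 higher with KCl and 43 higher for KCl against bicuculline, where median scaling gave 64. Normexp with 75th-percentile scaling gave 5 and 2, 36 and 13, and 16 and 7 in these comparisons. For all probes it gave 679 and 350, 3314 and 2802, and 1731 and 1332. Leaving out each array in turn gave 40 to 54 higher and 48 to 67 lower with bicuculline, 111 to 139 and 67 to 76 with KCl, and 91 to 111 and 49 to 60 for KCl against bicuculline. The matching counts for all probes are not given for these omissions. With the slide as a block the counts were 51 and 58, 108 and 62, and 75 and 42, and 39 values of named probes lost the call. The cause of these shifts was not tested. Over the named probes and all alternatives 5398 values kept their direction and side of the threshold, 534 lost the call, 88 gained one and 52 changed sign.

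Sign changes under normexp with 75th-percentile scaling were, for KCl against control, NR_024078 0.56, 3110070M22Rik 0.49, 5530601H04Rik 0.83 and 0.27, 6330549D23Rik 0.14, 9930014A18Rik 0.25, A930003A15Rik 0.74, Cdk3 0.63, Cep83os 0.35, Prmt6 0.16, Tyms-ps 0.32, Zfp85os 0.66, Norad -0.08 and Pantr1 -0.10. For KCl against bicuculline they were NR_024078 0.60, 0610040B10Rik 0.68, 3110070M22Rik 0.19, 5530601H04Rik 0.52, 9930014A18Rik 0.71, A930003A15Rik 1.05, C4bp-ps1 0.43, Cep83os 0.30, Crnde 0.60, Mirt1 0.44, Snhg8 0.08 and 0.89, Thap6 0.72, Zfp85os 1.00 and Norad -0.06. Under spike-in scaling they were, against control, 2900079G21Rik -0.03, Norad -0.12, Pantr1 -0.09 and Tsix -0.05, and against bicuculline NR_028086 -0.03, C030034I22Rik -0.03, Kcnq1ot1 -0.05, Pisd-ps3 -0.08 and -0.02, Snhg17 -0.03, Tug1 -0.02 and Norad -0.08. Quantile normalization turned Norad to -0.04 and -0.01, Pantr1 to -0.05 and Tsix to -0.03, with normexp before it Norad to -0.04 and -0.03, Pantr1 to -0.10 and Tsix to -0.02, and median scaling Norad to -0.06, Pantr1 to -0.03 and 1 Xist probe to -0.16.

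Whether the replicate numbers pair the arrays cannot be told apart from the slide, and the labels give the number no other meaning. Deviations of same-numbered arrays from their group means correlated at 0.668 to -0.483, and not every array correlated best with its own number. All 9 pairs of arrays of different groups on one slide correlated at 0.105 to 0.668. Same-numbered control and bicuculline arrays (0.344, 0.209 and 0.668) shared a slide, and the other same-numbered pairs did not. With the replicate number as a block 47 probes were higher and 57 lower with bicuculline, 135 and 73 with KCl, and 106 and 56 for KCl against bicuculline. Arrays near background limit the rest: 43 of the 315 probes were not well above background on all 9 arrays, and their fold changes are bounds or lower limits where a whole group was undetected.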
